A study of Mus musculus with 18 samples.

Results

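One lost Trp53 allele was examined in mouse embryonic fibroblasts (MEFs) that lack Pole4. The comparison set the 3 RNA-seq libraries labelled Pole4 null and Trp53 heterozygous against the 3 labelled Pole4 null and Trp53 wt, 6 of the 18 libraries of the series. Both groups carried the same Pole4 deletion (Pole4 tm1(KOMP)Vlcg), and the first group carried the Trp53 tm1Brd null allele on 1 of its 2 chromosomes. All cells were on the C57BL/6 background and were taken as primary lines from E13.5 embryos without head, heart and liver, bred from parents heterozygous for both genes, and were used at early passage. They were grown in 15% serum at 5% oxygen, and no treatment is named for any group. The groups are called Pole4-/- Trp53+/- and Pole4-/- Trp53+/+ MEFs below. Pole4-/- Trp53-/- MEFs and the Pole4+/+ cells of each Trp53 genotype, 3 libraries each, were read only where they show how the first comparison differs. The labels give no embryo for a library, so p-values measure the spread between libraries, some of which may be technical.

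TRP53 is the transcription factor p53, which is kept low by the ubiquitin ligase MDM2 and accumulates after DNA damage or replication trouble. It switches on genes for arrest, apoptosis and repair through a palindromic response element. Through the CDK inhibitor encoded by Cdkn1a, also called p21, it also lowers cell cycle genes, because less CDK activity leaves the repressive RB1, E2F and DREAM complexes in place. E2F sites are typical of genes for DNA synthesis, and the cell cycle homology region (CHR) is typical of mitotic genes. POLE4 is a small accessory subunit of DNA polymerase epsilon, the leading-strand polymerase, and its loss destabilises that enzyme.

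The 6 libraries held 11316150 to 35319918 counts, 11316150 to 25130258 in the Trp53+/+ and 22085005 to 35319918 in the Trp53+/- libraries, ranges that overlap. Ribosomal RNA genes took 7.11, 24.1 and 42.5% of counts in the Trp53+/+ libraries and 4.12, 15.5 and 3.75% in the Trp53+/- libraries. By Xist and Ddx3y, 1 of the 3 Trp53+/+ and 2 of the 3 Trp53+/- libraries came from female cells, while in Pole4+/+ cells all 3 Trp53+/+ libraries were female and all 3 Trp53+/- libraries male, so that sex and genotype cannot be told apart there. All 13 fibroblast markers were detected, and their summed level overlapped between the groups. The erythroid markers summed to at most 0.0834 CPM, the count of a gene relative to the TMM-scaled library size. The part of library depth, ribosomal RNA share and sex in the results below was not tested beyond the fits with a covariate and the fits without single libraries.

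Losing 1 Trp53 allele in Pole4-/- MEFs went with modest shifts in many genes and a strong change in few. Genes for DNA replication, mitosis and chromatin assembly rose in part, with list medians of 0.40 to 0.77 on the log2 scale, and 34 of 63 clustered histone genes rose. Lower were 6 of 35 Hox genes and 6 of 24 matrix proteases and inhibitors. Most of the known targets that TRP53 activates were not called. Of 15710 genes tested, 805 were called at an adjusted p under 0.05 (5.12%), 340 lower (2.16%) and 465 higher (2.96%), by edgeR's quasi-likelihood test with Benjamini-Hochberg adjustment, and called refers to this fit where no other tool or fit is named. Among them 147 fell and 89 rose at least 2-fold.

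The calls depended on having all 6 libraries. Without Pole4-/- Trp53+/- replicate 2, 17 genes were called, without Pole4-/- Trp53+/+ replicate 3, 33, and without its replicate 2, 41. In each of the first 2 of these fits Il1rl1 was the 1 gene of the lists below that was called. Without Pole4-/- Trp53+/+ replicate 1 the count was 241, and without Trp53+/- replicates 1 and 3 it was 526 and 553. With Xist as a covariate for sex 162 were called, and all 162 were among the 805. DESeq2 called 1735 on the same counts and shared 96.5% of the 805. Across those fits without 1 library the log2 fold change ran from -0.44 to -0.34 for Trp53, -2.51 to -1.54 for Perp, 0.75 to 0.91 for Pole, 0.71 to 0.89 for Bub1b and 1.94 to 3.41 for Tnn, genes described below.

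**Figure D1:**
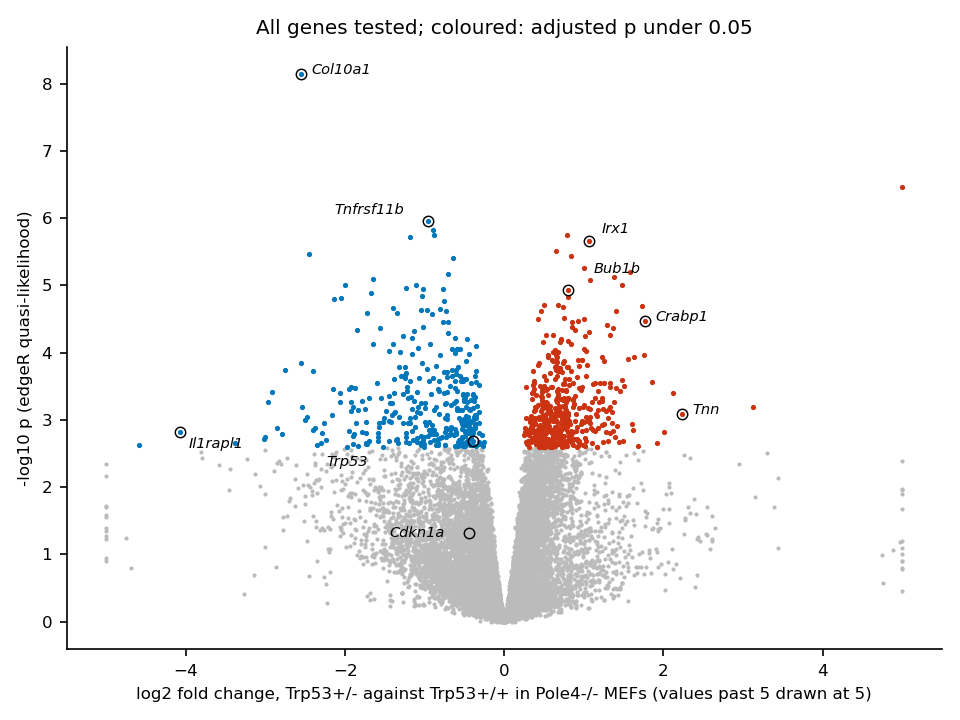
Each point is 1 of the 15710 genes tested, with the log2 fold change of Pole4-/- Trp53+/- against Pole4-/- Trp53+/+ MEFs on the x axis and -log10 of the unadjusted p on the y axis. The 340 blue genes were called lower and the 465 red genes higher; Trp53 lies just past the threshold and Cdkn1a below it.

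The targeted genes were read first. Trp53 (chr11:69580359-69591873, plus strand, GRCm38) stood at 64.2, 70.5 and 72.7 CPM in Pole4-/- Trp53+/+ libraries, at 53.2, 55.6 and 48.4 in Trp53+/- libraries and at 10.03, 12.1 and 11.9 in Trp53-/- libraries. The 3 groups did not overlap, and the heterozygous level was 75.8% of the Trp53+/+ level, a log2 fold change of -0.40 ± 0.11 (SE, n = 3 against 3; edgeR adjusted p = 0.0461), a call that each of the 6 fits without a library lost. Pole4 stood at 9.26 to 11.2 CPM in Trp53+/+ and 9.84 to 11.5 CPM in Trp53+/- libraries of Pole4-/- cells, against 14.2 to 26.4 CPM in the 9 Pole4+/+ libraries. The counts are per gene and do not show where in Pole4 the reads lie, so the level that remained is no check of the deletion. It overlapped between the 2 groups compared, at a log2 fold change of 0.06 ± 0.19, whose sign turned to -0.016 without Trp53+/+ replicate 2.

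The levels of the direct targets of TRP53 were read next. Cdkn1a, which encodes the CDK inhibitor p21, gave 342, 361 and 363 CPM in Trp53+/+ libraries, 305, 222 and 256 CPM in Trp53+/- libraries and 5.17 to 8.80 CPM in Trp53-/- libraries. Every heterozygous library lay below every Trp53+/+ library, yet the fall of 0.44 ± 0.21 on the log2 scale did not pass (edgeR adjusted p = 0.189), and 73.5% of the Trp53+/+ level remained. Ccng1, a cyclin-like feedback partner of MDM2, gave 731, 795 and 867 CPM in Trp53+/+ against 631, 615 and 617 CPM in Trp53+/- libraries, 77.8% of the level, with an adjusted p of 0.163 by edgeR. Mdm2 itself gave 150, 150 and 159 CPM against 124, 109 and 123 CPM, a log2 fold change of -0.36 ± 0.11 that missed the threshold (edgeR adjusted p = 0.0585). These 3 genes were lower in all 3 heterozygous libraries, by a margin that the test did not separate from the spread. Over 12 other settings Mdm2 was called in 5, Cdkn1a in 2 and Ccng1 in 1.

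Short promoter sites are shown for the genes, among called TRP53 targets and the genes above the midpoint described next, whose start region carries a match to the p53 response element, so that the sequence can be read beside their levels. Capg, an actin-capping protein, is the 1 among them that is on no TRP53 list. The windows run from 250 bases before to 50 bases after a RefSeq gene start (GRCm38.p6). The capitals mark the C and G at the core of each decamer. A match is 2 decamers of the p53 consensus with at most 2 mismatches outside the cores and a spacer of 0 or 1 base, and it was found in at least 1 window of 0.807% of the 27025 genes with a promoter.
Bax, chr7:45467079-45467099, minus strand: aggCaaGctttgaaCttGcgg
Capg, chr6:72549459-72549478, plus strand: gggCaaGctgagaCgaGttt
Ccng1, chr11:40755462-40755481, minus strand: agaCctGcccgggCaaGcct
Cd80, chr16:38458822-38458841, plus strand: gaaCagGcctggaCaaGtca
Cdkn1a, chr17:29090928-29090947, plus strand: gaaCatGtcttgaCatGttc
The Ccng1 and Cdkn1a sites each have 1 mismatch and the others 2; the Bax site has a spacer of 1 base. The Cdkn1a site lies 51 bases before the more upstream of its start sites. These matches are descriptions of sequence and no sign of binding.

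Over 6 lists of known TRP53 targets (arrest, apoptosis, metabolism and autophagy, repair, feedback and others), 85 of 88 genes were tested. In Trp53+/- against Trp53+/+ Pole4-/- MEFs 7 were called lower and 2 higher, beside 2.16% and 2.96% of all genes, with a median log2 fold change of -0.25 against -0.01 over all genes. Every heterozygous library lay below every Trp53+/+ library in 43 of the 85 and above in 9, beside 18.9% and 21.4% of all genes. The median was between -0.28 and -0.21 without any 1 library. Scaling by library totals alone shifted the median of all genes by 0.29 and turned that of the TRP53 lists to 0.05, which is -0.24 relative to all genes. In Trp53-/- against Trp53+/- cells, which share the heterozygous libraries, 49 of the 85 were called lower and 3 higher, beside 5.91% and 6.58% of all genes, with a median of -0.91. Ribosomal RNA genes took 24.7 to 30.04% of counts in the Trp53-/- libraries, above the 3.75 to 15.5% of the Trp53+/- libraries. With this share as a covariate the second step gave 861 calls over all genes instead of 1963, and its part in the list values was not tested. None of the 7 feedback regulators was called by edgeR in the heterozygous comparison, 2 had an unadjusted p under 0.05, and DESeq2 called 1.

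The 7 targets called lower had mean levels of 9.90 to 55.5 CPM in Trp53+/+ libraries. Perp, a desmosomal membrane protein with a part in apoptosis, gave 10.97, 17.9 and 13.9 CPM in Trp53+/+ and 6.54, 1.73 and 3.18 CPM in Trp53+/- libraries, a log2 fold change of -1.88 ± 0.41 (edgeR adjusted p = 0.0254). Cd80, a T cell co-stimulatory ligand, gave 21.1, 18.4 and 19.01 CPM against 10.6, 5.33 and 7.27 CPM, a fall of 1.33 ± 0.27 on the log2 scale with an edgeR adjusted p of 0.0202. In both genes every heterozygous library lay below every Trp53+/+ library. Trim7 (-0.96 ± 0.25), the phosphatase gene Ptp4a3 (-0.61 ± 0.16), the repair endonuclease gene Ercc5 (-0.53 ± 0.14), the translesion polymerase gene Polk (-0.39 ± 0.09) and the fucosidase gene Fuca1 (-0.37 ± 0.10) were the other log2 falls that passed. Of these 7 genes, none was called in more than 2 of the 6 fits that left out a library. The translesion polymerase gene Polh rose (0.49 ± 0.14).

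**Figure D2:**
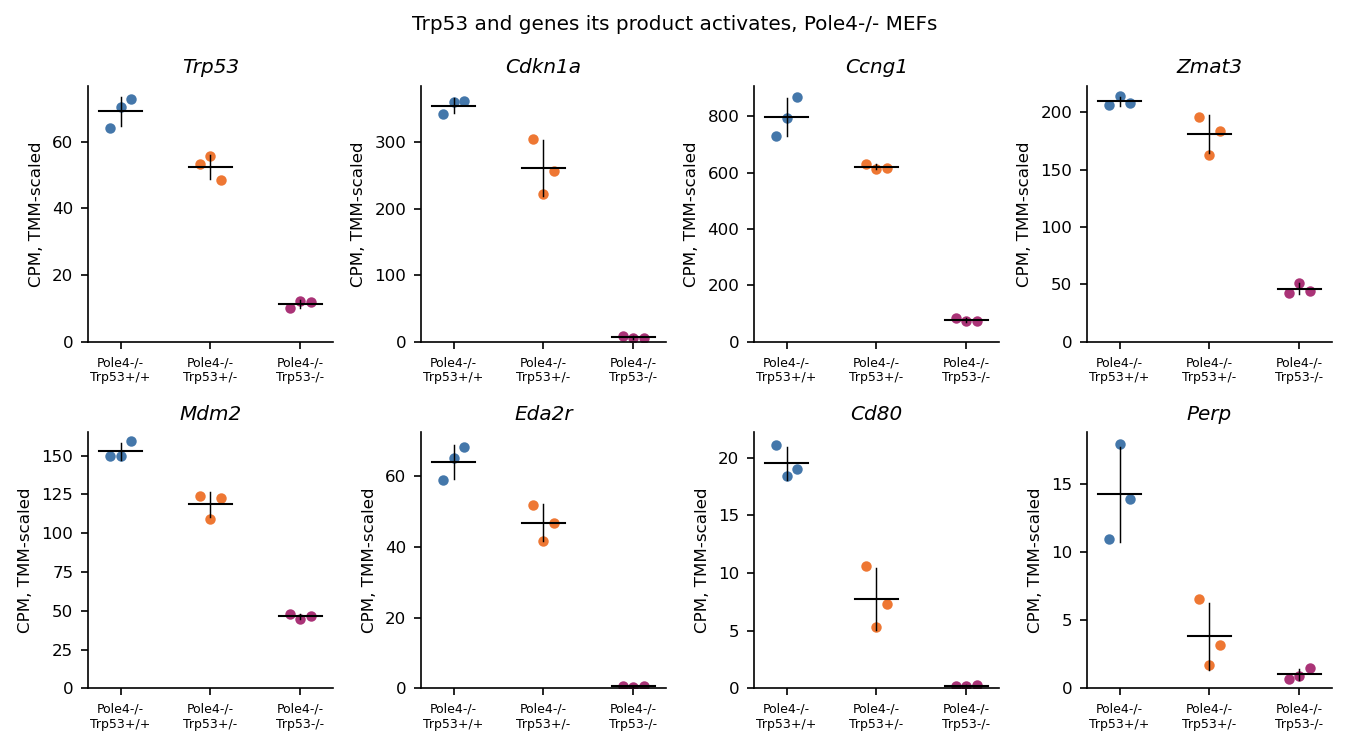
CPM (y axis, from 0) in the 3 libraries of each Pole4-/- Trp53 genotype (x axis) for Trp53 and 7 genes that TRP53 activates; points are libraries, horizontal bars means and vertical bars ± 1 SD. Cdkn1a stands at 222 to 305 CPM in Trp53+/- and 5.17 to 8.80 CPM in Trp53-/- libraries, while Perp and Cd80 drop already with 1 allele lost.

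The heterozygous level was then tested against the middle of the Trp53+/+ and Trp53-/- levels on the log2 scale. A gene at the arithmetic middle lies above the log2 middle where the Trp53-/- level is near 0, so the place on the linear scale is given too. 26 genes departed from the log2 middle (0.165%), 23 above (0.146%) and 3 below (0.0191%). Of the 23, 11 were on the TRP53 lists and Trp53 itself was another; in 17 of the 23 all 3 heterozygous libraries were above the arithmetic middle. The median heterozygous level of the 23 was 77.6% of the Trp53+/+ level.

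Eda2r, a TNF receptor family member, gave 58.9, 65.3 and 68.4 CPM in Trp53+/+ libraries, 52.0, 41.6 and 46.9 CPM in Trp53+/- libraries and 0.471 to 0.590 CPM in Trp53-/- libraries. It lay 3.00 above the log2 middle (SE 0.21, edgeR adjusted p = 2.8e-06) and kept 72.8% of the gap between the Trp53-/- and Trp53+/+ means. Zmat3, an RNA-binding protein, kept 82.5% of the gap, Ccng1 75.4% and Cdkn1a 73.0%. Phlda3, an inhibitor of AKT signalling, gave 78.7, 85.7 and 72.1 CPM in Trp53+/+ and 88.1, 86.1 and 79.2 CPM in Trp53+/- libraries against 15.4 to 21.2 CPM in Trp53-/- libraries. The pro-apoptotic gene Bax gave 65.0, 66.5 and 60.5 CPM against 65.6, 70.6 and 64.9 CPM, with 29.4 to 34.5 CPM in Trp53-/- libraries. In Phlda3 and Bax the Trp53+/+ and Trp53+/- libraries overlapped. In 6 of the 23 genes not all heterozygous libraries were above the arithmetic middle. Ano3, of the anoctamin family and on no TRP53 list, gave 35.7, 40.5 and 42.6 CPM in Trp53+/+, 18.1, 9.12 and 18.1 CPM in Trp53+/- and 0 to 0.199 CPM in Trp53-/- libraries. It had the largest fitted departure from the log2 middle, 3.12 ± 0.36, yet kept 38.0% of the gap, with 0 of 3 heterozygous libraries above the arithmetic middle. Cd80 kept 39.1% with 1 of 3 above, and Mgmt, a DNA repair methyltransferase, 58.2% with 2 of 3 above. Of the 20 of these 23 genes with a promoter in the reference, 5 held the p53 match, 25.0%.

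Genes above the middle that are on no TRP53 list included Ass1, the argininosuccinate synthase of arginine synthesis, with 81.9, 96.8 and 89.4 CPM in Trp53+/+ and 100, 131 and 141 CPM in Trp53+/- libraries against 16.3 to 33.1 CPM in Trp53-/- libraries. Inhbb, an activin subunit, gave 32.0, 30.7 and 34.1 against 46.2, 35.2 and 38.8 CPM, and 4.40 to 10.5 CPM in Trp53-/- libraries. Both were higher in every heterozygous library than in every Trp53+/+ library, though neither passed the test of that difference (edgeR adjusted p = 0.233 for Ass1 and 0.436 for Inhbb). Col5a3, a fibrillar collagen chain, was highest in the heterozygous cells of the 3 Pole4-/- genotypes: 19.6, 18.03 and 18.6 CPM in Trp53+/+, 39.9, 52.2 and 45.4 CPM in Trp53+/- and 20.4, 22.7 and 31.5 CPM in Trp53-/- libraries. Below the middle were Lpl, lipoprotein lipase, the ion transporter gene Slc12a2 and the unnamed gene Gm14295.

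Of the 5 genes of the DNA polymerase epsilon list 2 were called higher with 1 Trp53 allele lost and none lower, beside 2.96% and 2.16% of all genes. The list's median log2 fold change was 0.40. Pole, the catalytic subunit, gave 19.2, 17.4 and 20.3 CPM in Trp53+/+, 34.9, 36.0 and 28.6 CPM in Trp53+/- and 60.2, 60.3 and 73.0 CPM in Trp53-/- libraries of Pole4-/- cells. Pole2, its second subunit, gave 3.22, 2.84 and 3.75 against 6.49, 7.62 and 4.95 CPM, and 10.3 to 12.02 CPM in Trp53-/- libraries. For both genes the 3 genotypes did not overlap, and the heterozygous log2 fold changes were 0.81 ± 0.20 for Pole (edgeR adjusted p = 0.0361) and 0.97 ± 0.24 for Pole2 (edgeR adjusted p = 0.0374). In Pole4+/+ cells the same step gave 0.18 for Pole and 0.10 for Pole2, neither called. Both calls in Pole4-/- cells were lost with Xist as a covariate and in 5 of the 6 fits without a library. Pole3 (0.16 ± 0.16), Pole4 (0.06 ± 0.19) and Chrac1 (0.40 ± 0.19) did not pass.

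Of the origin licensing factors, which load the replicative helicase in G1, 6 of 15 were called higher and none lower, beside 2.96% and 2.16% of all genes. The 6 were the helicase subunits Mcm2 to Mcm7. Mcm6 gave 48.0, 53.5 and 55.8 CPM in Trp53+/+, 89.9, 118 and 78.2 CPM in Trp53+/- and 155 to 170.1 CPM in Trp53-/- libraries. Its log2 fold change of 0.86 ± 0.20 (edgeR adjusted p = 0.0288) stayed between 0.69 and 1.00 without any 1 library, and those of the other 5 subunits ran from 0.73 for Mcm4 to 1.05 for Mcm5. The list's median was 0.77, against 0.11 in Pole4+/+ cells, where no member was called by edgeR. The 2 called licensing genes with the lowest p and an E2F-like motif in their window are shown. The capitals mark TTTCCCGC, TTTGGCGC, TTTCGCGC or TTTGCCGC on either strand; overlapping matches run together.
Mcm6, chr1:128359656-128359955, minus strand: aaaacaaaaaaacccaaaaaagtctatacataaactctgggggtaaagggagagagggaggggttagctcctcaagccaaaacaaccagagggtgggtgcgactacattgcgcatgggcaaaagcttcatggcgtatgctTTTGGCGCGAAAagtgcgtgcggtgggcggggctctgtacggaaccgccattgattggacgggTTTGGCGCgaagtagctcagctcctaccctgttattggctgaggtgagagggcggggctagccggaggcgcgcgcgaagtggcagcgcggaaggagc
Mcm3, chr1:20820263-20820562, minus strand: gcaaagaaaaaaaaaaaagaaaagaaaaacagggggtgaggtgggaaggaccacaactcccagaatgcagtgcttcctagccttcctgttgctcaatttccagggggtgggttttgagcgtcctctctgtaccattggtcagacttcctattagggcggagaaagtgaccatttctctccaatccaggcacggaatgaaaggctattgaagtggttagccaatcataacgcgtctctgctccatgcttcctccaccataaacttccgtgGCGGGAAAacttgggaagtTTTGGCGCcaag
Such a motif was found for 8 of the 13 licensing genes with a promoter, 61.5%, and for 2.60% of all genes with a promoter. The other replication lists held it less often: 3 of 9 chromatin replication genes, 5 of 21 firing and replisome genes and 0 of 15 nucleotide supply genes with a promoter.

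Some of the genes that act after licensing were called as well. The counts below are read beside the 2.96% of all genes called higher and the 2.16% called lower. In origin firing and the replisome 9 of 28 were called higher, among them the fork protector Timeless (0.71 ± 0.13), the firing factor Mtbp (0.62 ± 0.12) and the clamp loader subunits Rfc1, Rfc2, Rfc4 and Rfc5 (0.38 to 0.75 in log2). In DNA polymerases alpha and delta 3 of 8 rose: Pola1 (0.85 ± 0.15), Pold2 (0.72 ± 0.18) and Pold1 (0.62 ± 0.16). In nucleotide supply 6 of 16 rose, among them the dUTPase gene Dut (0.97 ± 0.21) and the thymidylate synthase gene Tyms (0.56 ± 0.15). None of these 3 lists held a gene called lower by edgeR or DESeq2, with all 18 libraries, while limma voom and edgeR on the compared libraries alone each called 1 lower among polymerases alpha and delta. Homologous recombination and Fanconi anemia genes rose in 6 of 22 cases, with the exonuclease gene Exo1 at 0.93 ± 0.25 and Brca1 at 0.43 ± 0.11 on the log2 scale.

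Mitotic genes gave the most calls of the lists chosen by function. 29 of 48 were called higher and none lower, beside 2.96% and 2.16% of all genes. Their list's median log2 fold change was 0.70, against 0.94 for Trp53-/- over Trp53+/- cells, which share the heterozygous libraries, and 0.14 for the heterozygous step in Pole4+/+ cells. In 47 of the 48 every heterozygous library lay above every Trp53+/+ library, beside 21.4% of all genes. Bub1b, the spindle checkpoint kinase BUBR1, gave 26.5, 25.2 and 22.4 CPM in Trp53+/+, 41.1, 48.9 and 39.8 CPM in Trp53+/- and 75.3, 77.9 and 86.4 CPM in Trp53-/- libraries. Its rise of 0.80 ± 0.13 (edgeR adjusted p = 0.00735) was called in 4 of the 6 fits without a library. Sgo1, which protects centromeric cohesion (0.98 ± 0.19), the condensin subunit genes Ncapd2 (0.74 ± 0.15) and Ncapg (0.70 ± 0.13), Cdc25b, a phosphatase that activates CDK1 (0.72 ± 0.13), and cyclin gene Ccnb2 (0.66 ± 0.13) rose as well. The count of called mitotic genes fell to 7 with Xist as a covariate and to 0 without Trp53+/- replicate 2 or Trp53+/+ replicate 3, while the median of the list stayed between 0.58 and 0.78 without any 1 library.

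The windows of the 3 called mitotic genes with the lowest p and a CHR motif are shown. The capitals mark TTTGAA or TTCGAA on either strand.
Bub1b, chr2:118597961-118598260, plus strand: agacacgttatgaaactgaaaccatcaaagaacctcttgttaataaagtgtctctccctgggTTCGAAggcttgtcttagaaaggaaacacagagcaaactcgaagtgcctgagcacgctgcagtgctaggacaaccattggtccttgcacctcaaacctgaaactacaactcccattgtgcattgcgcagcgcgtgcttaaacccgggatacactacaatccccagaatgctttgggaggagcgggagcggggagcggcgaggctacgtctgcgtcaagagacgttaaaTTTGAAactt
Cdc25b, chr2:131186698-131186997, plus strand: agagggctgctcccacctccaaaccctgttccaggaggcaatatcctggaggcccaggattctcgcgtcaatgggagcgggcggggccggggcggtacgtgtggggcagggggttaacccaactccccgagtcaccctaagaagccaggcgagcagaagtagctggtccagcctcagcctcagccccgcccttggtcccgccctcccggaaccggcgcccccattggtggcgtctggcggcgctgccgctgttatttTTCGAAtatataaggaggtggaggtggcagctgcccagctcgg
Ncapg, chr5:45669675-45669974, plus strand: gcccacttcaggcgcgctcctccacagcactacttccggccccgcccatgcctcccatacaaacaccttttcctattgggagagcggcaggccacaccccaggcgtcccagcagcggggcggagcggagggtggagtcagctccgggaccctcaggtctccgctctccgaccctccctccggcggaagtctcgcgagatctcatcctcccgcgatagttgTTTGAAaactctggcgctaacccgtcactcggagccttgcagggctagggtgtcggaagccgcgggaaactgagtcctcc
This motif was found for 32 of the 39 mitotic genes with a promoter, 82.1%, and for 21.7% of all genes with a promoter; CCAAT was found for 76.9% and 41.1%. The E2F-like motif was found for 7.69% of these mitotic genes.

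**Figure D3:**
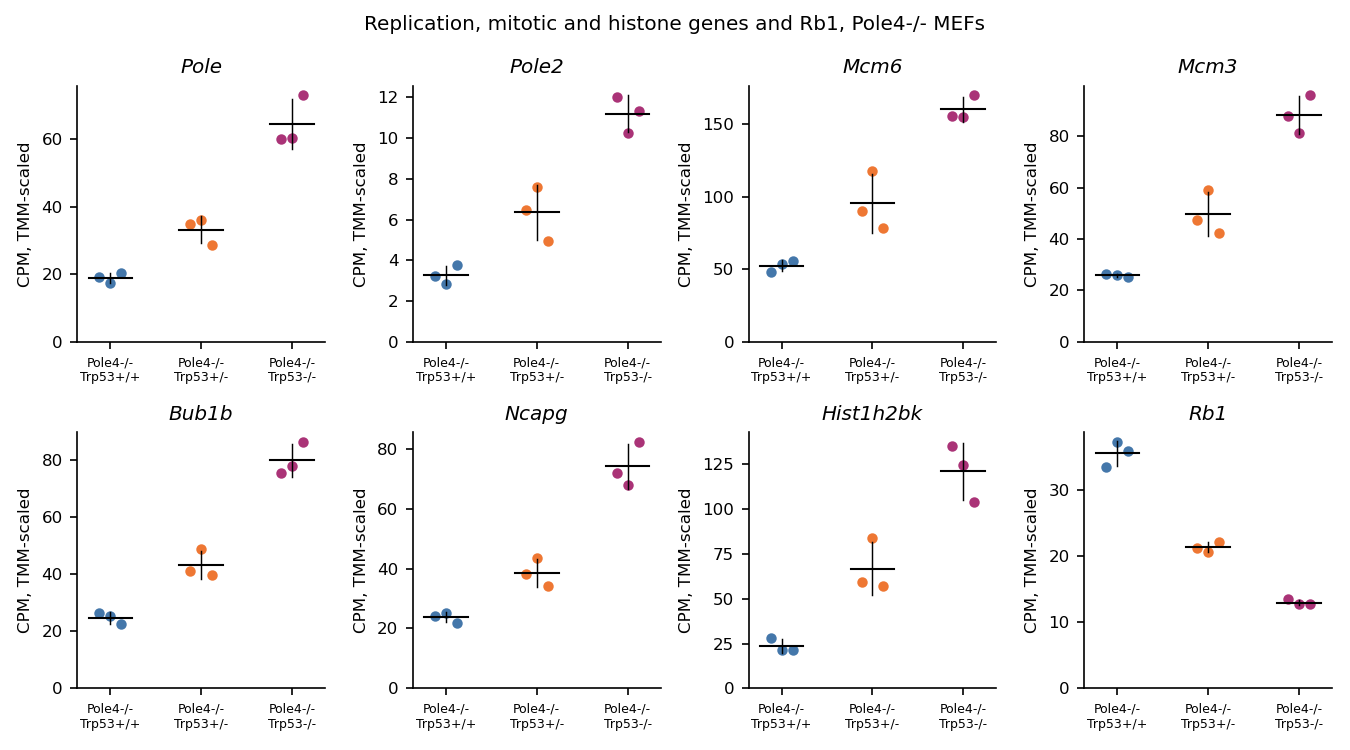
CPM (y axis, from 0) in the 3 libraries of each Pole4-/- Trp53 genotype (x axis) for 7 replication, mitotic and histone genes and Rb1; points are libraries, horizontal bars means and vertical bars ± 1 SD. In the first 7 genes the heterozygous libraries lie above the Trp53+/+ and below the Trp53-/- libraries, and Rb1 runs the other way, from 33.4 to 37.1 CPM over 20.6 to 22.1 CPM to 12.7 to 13.4 CPM.

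Among G1 and G1/S regulators 3 of 33 were called higher and 1 lower, beside 2.96% and 2.16% of all genes. Rb1, the retinoblastoma repressor of E2F genes, gave 33.4, 37.1 and 35.9 CPM in Trp53+/+ against 21.2, 20.6 and 22.1 CPM in Trp53+/- libraries, 60.1% of the level, at a log2 fold change of -0.73 ± 0.12 (edgeR adjusted p = 0.00902). The kinase genes Cdk4 (0.32 ± 0.08) and Cdk2 (0.45 ± 0.13) and the E2F family repressor gene E2f8 (0.84 ± 0.23) rose. Chromatin replication genes were called higher in 8 of 10 cases, beside 2.96% of all genes. Among them were the lamin gene Lmnb1 at 0.86 ± 0.18, the variant histone gene H2afz at 0.91 ± 0.19, the H3-H4 chaperone gene Chaf1a at 0.77 ± 0.19 and the maintenance methylation factor gene Uhrf1 at 0.78 ± 0.19. The count fell to 1 without Trp53+/+ replicate 1. It was 0 with Xist as a covariate and without Trp53+/- replicate 2 or Trp53+/+ replicate 2 or 3. The list's median stayed between 0.66 and 0.83 without any 1 library.

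The clustered histone genes, which are transcribed in S phase, had the largest median, 1.09, of the lists described here that were called in over 5 members. By edgeR 34 of 63 were called higher and none lower, beside 2.96% and 2.16% of all genes, while DESeq2 called 47 higher and 1 lower. The edgeR count fell to 2 with Xist as a covariate, to 6 without Trp53+/+ replicate 1 and to 0 without Trp53+/- replicate 2 or Trp53+/+ replicate 2 or 3, and the median ran from 0.82 to 1.22 without any 1 library. The family was chosen by symbol after the other lists were fixed, and its near-identical members share reads, so that single members are uncertain. As a share of library counts the family took 0.171, 0.125 and 0.0958% in Trp53+/+, 0.264, 0.369 and 0.281% in Trp53+/- and 0.359 to 0.453% in Trp53-/- libraries. The heterozygous shares were all above the Trp53+/+ shares and overlapped the Trp53-/- shares, in which ribosomal RNA genes took 24.7 to 30.04% of counts. On the TMM-scaled scale the family summed to 1407 to 1611 CPM in Trp53+/+, 2392 to 3810.2 CPM in Trp53+/- and 4414.5 to 5240.3 CPM in Trp53-/- libraries, and the 3 genotypes did not overlap. Most histone mRNAs of this kind lack a polyA tail and the labels give polyA RNA, while ribosomal RNA genes took up to 42.5% of counts; the part of RNA selection in these values was not tested. In Pole4+/+ cells the shares were 0.250 to 0.392% with 2 Trp53 alleles and 0.335 to 0.430% with 1. Hist1h2bk gave 28.2, 21.4 and 21.5 CPM in Trp53+/+ against 59.4, 83.8 and 57.1 CPM in Trp53+/- libraries (log2 fold change 1.48 ± 0.31, edgeR adjusted p = 0.0235).

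**Figure D4:**
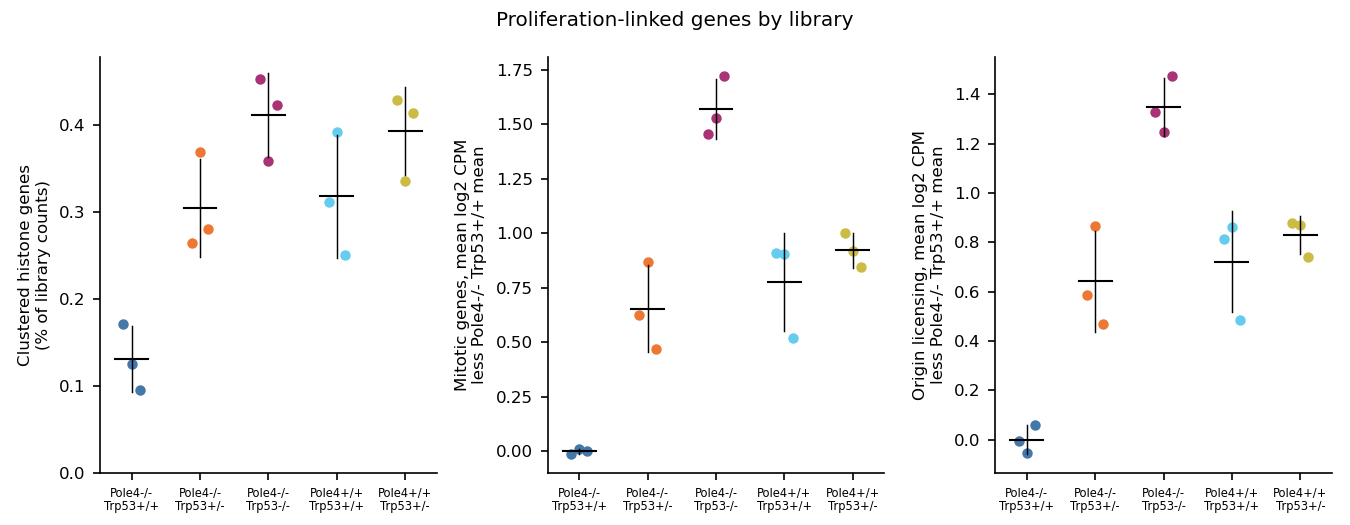
Share of library counts in clustered histone genes (left, y axis in %) and the mean log2 CPM of mitotic (middle) and licensing genes (right) less the Pole4-/- Trp53+/+ mean, for the 3 libraries of 5 genotypes (x axis); horizontal bars are means and vertical bars ± 1 SD. The mitotic mean of the heterozygous Pole4-/- libraries, 0.469 to 0.868, overlaps that of the Pole4+/+ Trp53+/+ libraries, 0.518 to 0.911.

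The counts of 4 metabolic lists are read beside the 2.96% of all genes called higher. Of the ATF4 response and serine synthesis list 5 of 23 were called higher, among them Shmt2, mitochondrial serine hydroxymethyltransferase, with 84.2, 80.4 and 72.8 CPM in Trp53+/+ and 141, 173 and 125 CPM in Trp53+/- libraries (0.89 ± 0.16 in log2, edgeR adjusted p = 0.0120). Psat1 (0.72 ± 0.16) and Phgdh (0.64 ± 0.16), enzymes of serine synthesis, the amino acid transporter gene Slc7a5 (0.75 ± 0.17) and the secreted stress protein gene Stc2 (1.41 ± 0.31) were the others. The list's median log2 fold change was 0.58, and -0.41 from Trp53+/- to Trp53-/- cells, which share the heterozygous libraries. Glucose transport and glycolysis gave 7 of 24 called higher, with the glucose transporter gene Slc2a1 at 0.49 ± 0.11, Pgk1 at 0.49 ± 0.13 and Pkm at 0.39 ± 0.09, and medians of 0.34 and -0.32 in the same 2 comparisons. Cholesterol synthesis and uptake gave 6 of 24 called higher, with the acetyl-CoA acetyltransferase gene Acat2 at 27.1, 29.8 and 27.8 CPM in Trp53+/+ and 46.0, 45.4 and 41.1 CPM in Trp53+/- libraries (0.65 ± 0.13 in log2). NRF2 antioxidant genes gave 3 of 23 called higher, Srxn1 (0.48 ± 0.09), Pgd and Taldo1 (both 0.35 ± 0.09). None of these 4 lists held a gene called lower by edgeR with all 18 libraries and no covariate or block. DESeq2 called 1 lower among the NRF2 genes, as did edgeR on the compared libraries alone. limma voom called 2 lower there and 1 among the glycolysis genes. With Xist as a covariate the counts called higher fell to 1, 0, 2 and 1, in the order above. Each fell to 0 without Trp53+/- replicate 2 or Trp53+/+ replicate 2 or 3.

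Lysosomal genes were called lower in 2 of 26 cases, beside 2.16% of all genes: Hexa (-0.46 ± 0.12) and Scarb2 (-0.53 ± 0.13). In this list 20 of the 26 had every heterozygous library below every Trp53+/+ library, beside 18.9% of all genes. Of the 13 mitochondrially encoded subunits 2 fell, mt-Nd5 (-0.52 ± 0.11) and mt-Nd4 (-0.45 ± 0.11), 15.4% beside 2.16% of all genes. Of the 36 nuclear subunits 1 rose, Cyc1 (0.43 ± 0.12), 2.78% beside 2.96% of all genes.

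Extracellular genes fell in part. Of the matrix proteases and inhibitors 6 of 24 were called lower and none higher, beside 2.16% and 2.96% of all genes. The aggrecanase gene Adamts5 gave 390.3, 397 and 321 CPM in Trp53+/+ against 193, 117 and 171 CPM in Trp53+/- libraries (-1.20 ± 0.27). The others were Mmp16 (-1.23 ± 0.27), Adamts1 (-0.99 ± 0.23), Timp2 (-0.73 ± 0.20), Mmp2 (-0.61 ± 0.17) and Adamts12 (-0.60 ± 0.14). Elastin gene Eln (-1.74 ± 0.47) and its cross-linking oxidase gene Lox (-0.78 ± 0.21) fell. They were the called members among 26 other matrix genes, 7.69% beside 2.16% of all genes called lower. Collagen genes gave 2 of 23 lower, Col14a1 (-1.52 ± 0.38) and Col8a1 (-0.81 ± 0.16), and 1 higher, Col5a3 (1.29 ± 0.23), beside 2.16% and 2.96% of all genes. Of the 17 genes of the IGF axis 1 was called, 5.88% beside 5.12% of all genes: Igfbp2, an IGF binding protein, fell from 492, 552 and 490.0 CPM to 218, 156 and 202 CPM (-1.41 ± 0.32, edgeR adjusted p = 0.0299). Of the 27 cytokines, chemokines and related genes tested 2 were called lower and 1 higher, beside 2.16% and 2.96% of all genes. Bmp4 fell by 1.43 ± 0.33 and Cxcl14 by 1.04 ± 0.29 on the log2 scale, and Il1rl1, the IL-33 receptor, rose from 106, 67.6 and 88.2 to 209, 226 and 248 CPM (1.38 ± 0.21, edgeR adjusted p = 0.00719). Tgfb2, the 1 of 20 genes of the contractile list that was called (5.00%, beside 5.12% of all genes), fell by 0.69 ± 0.18 on the log2 scale.

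Of 35 Hox genes tested, a family chosen by symbol after the other lists were fixed, 6 were called lower and none higher, beside 2.16% and 2.96% of all genes. They were Hoxb2, Hoxb3, Hoxb4, Hoxb5, Hoxb6 and Hoxa3, which set anterior to mid-trunk identity. The count fell to 3 with Xist as a covariate and to 1 without Trp53+/+ replicate 1. It was 0 without Trp53+/- replicate 2 or Trp53+/+ replicate 2 or 3, while the median stayed between -0.60 and -0.48 without any 1 library. Hoxb5 gave 7.26, 7.09 and 8.16 CPM in Trp53+/+ against 3.64, 2.20 and 3.40 CPM in Trp53+/- libraries, at -1.27 ± 0.23 (edgeR adjusted p = 0.0131). In Pole4+/+ cells 2 of the 35 were called lower, beside 0.407% of all genes, and the family's median was -0.47 there against -0.59 in Pole4-/- cells. Interferon-stimulated genes gave 0 of 33 called by edgeR in Pole4-/- cells, beside 5.12% of all genes. An unadjusted p under 0.05 was found for 4 that were lower and 2 that were higher, and DESeq2 called 2 lower. Imprinted growth genes gave 0 of 19, beside the same 5.12%, with an unadjusted p under 0.05 for 10 that were lower and 1 that was higher, and 3 called lower by DESeq2. Mest gave 236, 238 and 203 CPM in Trp53+/+ and 48.3, 30.7 and 65.1 CPM in Trp53+/- libraries without passing (edgeR adjusted p = 0.0641).

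Summed markers of some other cell types were at other levels in the 2 groups. Chondrocyte markers summed to 393 to 703 CPM in Trp53+/+ and 176 to 410 CPM in Trp53+/- libraries, which overlap, adipocyte markers to 15.3 to 25.4 against 10.1 to 13.4 CPM, and epithelial markers to 10.6 to 16.99 against 23.4 to 31.8 CPM. By edgeR 0 of the 7 tested chondrocyte and 0 of the 3 tested epithelial markers were called, beside 5.12% of all genes. Lpl was the 1 called adipocyte marker of 4. An unadjusted p under 0.05 was found for 3 chondrocyte markers, all lower, and for 0 epithelial markers. DESeq2 called 2 chondrocyte markers lower and 0 epithelial markers. Macrophage, muscle, endothelial and neural sums overlapped. In bulk libraries fewer cells of a type and less RNA per cell cannot be told apart, and the part of these markers in the results was not tested.

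The 10 called, non-overlapping genes with the lowest p were on none of the lists. Col10a1, the collagen of hypertrophic cartilage, had the lowest p: 15.5, 33.8 and 22.4 CPM in Trp53+/+, 4.36, 3.37 and 4.41 CPM in Trp53+/- and 1.83 to 2.36 CPM in Trp53-/- libraries. Its log2 fold change of -2.55 ± 0.23 (edgeR adjusted p = 0.000114) was called in all 6 fits without a library. The summed chondrocyte markers were also lower in heterozygous cells, with the overlap given above. Tnfrsf11b, the decoy receptor osteoprotegerin, fell from 165, 167 and 171 CPM to 93.4, 75.2 and 89.7 CPM (-0.96 ± 0.13), Npr3, the natriuretic peptide clearance receptor, by 1.19 ± 0.16, the cysteine protease inhibitor gene Cst3 by 0.88 ± 0.12, Zc2hc1a by 0.89 ± 0.12 and the sodium channel subunit gene Scn3b by 2.45 ± 0.35 on the log2 scale. Rising with low p were the homeobox gene Irx1 (1.07 ± 0.15), the antiviral zinc finger gene Zc3hav1 (0.79 ± 0.11), the repressor gene Zbtb18 (0.84 ± 0.12) and the RAC1 regulator gene Rcc2 (0.65 ± 0.09). These 10 genes were called in every fit that left out 1 of the 6 libraries.

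Among called genes of at least 1 CPM whose groups did not overlap, the lowest fold changes belonged to genes with little RNA in heterozygous cells, 0.0362 to 4.41 CPM per library: Il1rapl1, Wdr72, Islr, Kcna5, Chodl, Elobl, Alox5, Klhdc7a, Pamr1 and Col10a1, at log2 fold changes of -4.07 to -2.55. Islr gave 13.5, 16.3 and 14.7 CPM in Trp53+/+, 2.44, 0.842 and 2.10 CPM in Trp53+/- and 0.530 to 1.41 CPM in Trp53-/- libraries. The potassium channel gene Kcna5 gave 2.62, 3.00 and 2.01 against 0.308, 0.140 and 0.506 CPM. The groups were far apart in both genes, but Islr was not called without any 1 library and Kcna5 was called in 1 of the 6 such fits. The highest fold changes among such genes belonged to Tnn, Crispld2, F2rl1, Crabp1, Hist1h2ae, Tfap4, Vat1l, Amz1, Gfra1 and Lrrc15, at 1.56 to 2.24. Tnn, the matrix protein tenascin-W, gave 19.8, 5.17 and 4.28 against 55.7, 57.5 and 35.7 CPM. Crabp1, a retinoic acid binding protein, gave 42.7, 20.3 and 31.6 against 82.2, 100 and 141 CPM. Gfra1, the GDNF co-receptor, gave 2.92, 3.42 and 3.08 against 7.08, 12.9 and 8.25 CPM and was called in all 6 fits without a library.

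The same step in Pole4+/+ cells shares no library with this comparison, but it is no independent repeat of it. There all 3 Trp53+/+ libraries were female and all 3 Trp53+/- libraries male, so sex and genotype cannot be told apart. Deviations of same-numbered heterozygous libraries also correlated across the backgrounds, at r = 0.343, 0.574 and 0.399. The part of either in the shared calls was not tested. The step in Pole4+/+ cells gave 142 called genes (0.904%), 64 lower (0.407%) and 78 higher (0.496%). Called in both backgrounds were 60 genes, 24 lower and 36 higher in both, which is 7.45% of the calls in Pole4-/- and 42.3% of those in Pole4+/+ cells. Col10a1, Npr3, Irx1, Zc3hav1, Rcc2, Tnn, Crabp1, Vat1l, Gfra1, Lrrc15, Il1rl1, Col5a3, Hoxb2, Cd80 and Trp53 were among the 60. Over the 465 genes called higher in Pole4-/- cells the median log2 fold change was 0.67 there and 0.20 in Pole4+/+ cells, and over the 340 called lower it was -0.88 and -0.30; the first value of each pair comes from the comparison that chose the genes. No licensing, firing, mitotic, nucleotide supply or histone gene of the lists was called in Pole4+/+ cells.

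The difference of the heterozygous effects between the Pole4 backgrounds was tested directly. It gave 0 called genes by edgeR with all 18 libraries, 1591 at an unadjusted p under 0.05, 29 called by DESeq2, 959 by limma voom with quality weights and 40 by edgeR on the 12 libraries of the 4 genotypes. The smallest adjusted p over all genes was 0.344. The larger heterozygous fold changes of replication and mitotic genes in Pole4-/- cells are therefore given side by side with those in Pole4+/+ cells. Whether a gene was called for the difference depended on the fit. The Pole4+/+ step sets 3 male against 3 female libraries, so a difference between backgrounds cannot be told apart from one of sex. With Xist as a covariate the difference gave 0 called genes, and 729 at an unadjusted p under 0.05 by edgeR.

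**Figure D5:**
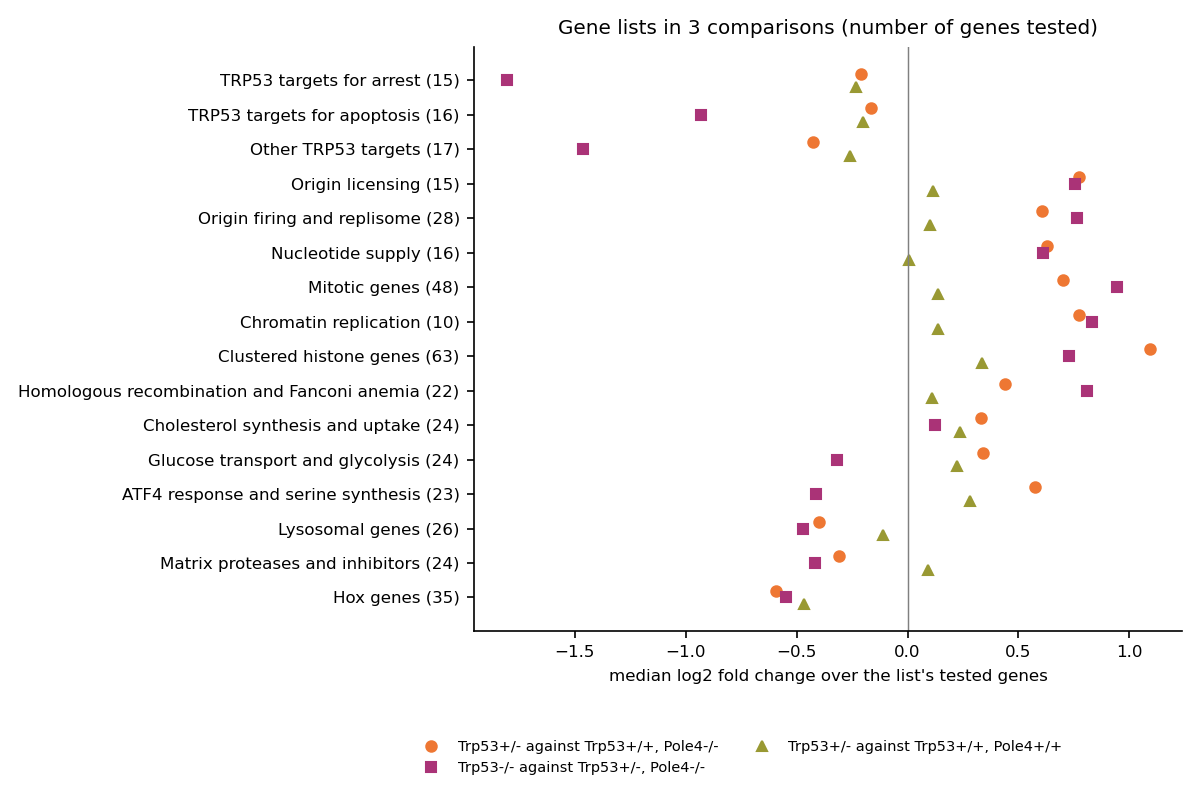
Median log2 fold change (x axis) over the tested genes of 16 lists (y axis, number tested in brackets) for the loss of 1 allele in Pole4-/- cells (circles), the loss of the second allele there (squares, sharing the heterozygous libraries) and the loss of 1 allele in Pole4+/+ cells (triangles). Lists of TRP53 targets for arrest and apoptosis lie at -0.21 and -0.17 for the first allele (-0.26 to -0.03 and -0.26 to -0.09 without any 1 library) and at -1.81 and -0.93 for the second, whereas licensing genes lie at 0.77 and 0.75.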

How the data were processed

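RNA of the 18 libraries was turned into cDNA with the Ovation RNA-Seq System V2, sequenced as 100 bp paired-end reads, and aligned to GRCm38 and quantified per gene with STAR 2.5.2 and RSEM 1.3.0, per the labels. The labels name TRIzol for extraction and the study's methods a column kit; the labels give polyA RNA, although ribosomal RNA genes took 3.75 to 42.5% of counts in the 6 libraries compared. The authors deposited RSEM expected counts, 1 column per library; reads shared by near-identical genes are split by an estimate. Of 51912 identifiers 51719 matched the GENCODE vM21 annotation. Expected counts were rounded, genes filtered with filterByExpr and scaled by TMM, and CPM computed from them. edgeR 4.0.16 was fitted to all 18 libraries with 1 mean per genotype (glmQLFit, robust; 12 residual degrees of freedom), and p-values were adjusted by Benjamini-Hochberg over 15710 genes. The SE is the log2 fold change over the root of F. The fit was also run on simulated counts, whose outcome is not given here and lends the calls no support. An exact permutation test of 3 against 3 libraries cannot go below a p of 0.10, so none is printed. Named genes were Trp53, Pole4 and Cdkn1a, the 10 lowest and highest fold changes and 10 lowest p among called, non-overlapping genes of at least 1 CPM, up to 6 called members of each list (2 uncalled where none passed), and the 4 lowest p on each side of the midpoint. Other genes above or below the midpoint, Pole3 and Chrac1 were named after their values were seen. Members and lists were chosen with earlier results of these data known. The deviations from group means of same-numbered Pole4-/- Trp53+/- and Trp53+/+ libraries correlated at r = -0.225, 0.095 and -0.109, so the numbers do not pair them. Across the Pole4 backgrounds same-numbered libraries correlated at 0.343, 0.574 and 0.399 (Trp53+/-) and 0.13, 0.271 and 0.289 (Trp53+/+), over the 0.1 taken as pairing; with the number as a block the difference of effects between backgrounds also gave 0 calls (1863 at an unadjusted p under 0.05). Alternatives were RLE, upper-quartile and library-total scaling, removal of ribosomal RNA genes, other filters, DESeq2 1.42.0, limma 3.58.1 voom, covariates and left-out libraries; the ribosomal RNA covariate was added after seeing the data. Promoters came from RefSeq (GRCm38.p6). Results for some items are not reported here.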

Additional observations from a re-analysis of the deposited data

How the results depend on the processing

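The counts of calls moved with the settings more than the fold changes did. For Pole4-/- Trp53+/- against Trp53+/+ MEFs (340 genes lower, 465 higher), an adjusted p under 0.01 left 27 and 18, library totals alone gave 65 and 2098, no filter 172 and 726, DESeq2 675 and 1060, limma voom 1863 and 2002, the 6 libraries alone 1112 and 1570, Xist as covariate 80 and 82, and the ribosomal RNA share as covariate 881 and 1071. Without 1 library these counts ran from 9 to 196 lower and from 8 to 413 higher. Calls that were higher made up 57.8% of the total, 97.0% under library totals alone, where the median of all genes was 0.29, and 80.8% without a filter. The 142 calls in Pole4+/+ cells became 22 at an adjusted p under 0.01, 39 with library totals, 403 with DESeq2, 1120 with voom, 217 with the compared libraries alone, and 17 to 101 without 1 library. The 0 calls for the difference of effects became 29, 959 and 40 with DESeq2, voom and the compared libraries alone, and stayed at 0 to 0 without 1 library. For Trp53-/- against Trp53+/- cells 1963 became 664, 1252, 4068 and 861 with an adjusted p under 0.01, library totals, voom and the ribosomal RNA covariate, and 654 to 1803 without 1 library. The 26 genes off the midpoint became 111, 43, 158, 111 and 63 with library totals, no filter, DESeq2, voom and the compared libraries alone, and 18 to 29 without 1 library. The replicate number fitted as a block (replicate block) gave 983 calls, 750 of them among the 805, although the numbers do not pair these groups; it moved no other count past 1.5 times. The cause of these moves was not tested. Of the named genes, 3 changed sign, and none of the 3 was called. Zmat3 stood at 0.10 with library totals. Pole4 (-0.016 to 0.15 without 1 library) and Tek, named by the rule but not described above (-1.06 to 0.076 without 1 library), changed sign without Trp53+/+ replicate 2. With 3 libraries a group and a common coefficient of biological variation of 0.214, small changes of weakly expressed genes are at the limit of detection.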
